A study of Homo sapiens with 15 samples.

Results

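The expression of 9 genes that detect DNA double-strand breaks and bring the protein 53BP1 to them was followed in LNCaP cells, out of 17272 genes in the deposited table. The genes were taken by name, and all 9 had a row and passed the filter on low values. They are RAD50 and NBN (break sensing), MDC1 (the mediator), RNF8 and RNF168 (ubiquitin ligases), TP53BP1 (which encodes 53BP1), RIF1 and PAXIP1 (effectors bound by 53BP1) and KAT5 (the acetyltransferase TIP60).

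A break is first bound by the MRE11, RAD50 and NBN complex, which activates the kinase ATM, and ATM phosphorylates histone H2AX in the surrounding chromatin. MDC1 binds this mark and recruits RNF8, whose ubiquitin signal is read and spread by RNF168 on histone H2A, and 53BP1 binds nucleosomes that carry this ubiquitin next to a methylated lysine of histone H4. Bound 53BP1 recruits RIF1 and PTIP, the product of PAXIP1, which hold back the trimming of the broken ends, while TIP60 acetylates histones and ATM and counteracts 53BP1 binding. These steps are steered mainly through modification of proteins already present, so mRNA levels describe the supply of the components and not their activity at a break.

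LNCaP cells come from a human prostate cancer and respond to androgen, R1881 is a synthetic androgen and enzalutamide inhibits the androgen receptor. Before treatment, which lasted 22 h, the cells spent 2 days in charcoal-stripped serum, which lacks androgen. According to the sample labels, 10 libraries were of cells given 1 nM R1881 with the solvent DMSO (R1881 + DMSO). The other 5 were of cells given 1 nM R1881 with enzalutamide (R1881 + enzalutamide). The methods of the study give these numbers of libraries the other way round, and the labels were followed here. The labels call the enzalutamide dose high, and the methods give it as 2 µM. No irradiated cells or cells without R1881 are among these samples, so the comparison is of unirradiated cells of a single line.

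Polyadenylated RNA was sequenced, and values are given as deposited, in a normalized unit close to counts per 1000000 reads that the methods call CPM. Column sums ran from 1053406 to 1078567 with R1881 + DMSO and from 985580 to 1008992 with enzalutamide, so the scaling differed with the treatment, and values with each total set to 1000000 are given where they change the call of a named gene. The reads behind them numbered between 15830745 and 24316740 per library with R1881 + DMSO and between 21188661 and 25416052 with R1881 + enzalutamide. The androgen-induced check genes FKBP5, KLK2 and TMPRSS2 were lower in every library labelled enzalutamide than in any labelled DMSO, with log2 fold changes between -4.99 and -3.56, and all 6 luminal LNCaP markers were present. Of 12 markers of stroma, leukocytes, endothelium and basal cells 4 had a row, with a summed level of 8.33 to 12.2 CPM with R1881 + DMSO and 11.7 to 17.5 CPM with R1881 + enzalutamide, and the other 8 were not analysed here. All 4 passed the limma test, as COL1A1 rose from 6.03 to 9.96 CPM, LUM from 0.213 to 1.53 CPM and VWF from 2.56 to 3.20 CPM, while KRT14 fell from 1.02 to 0.10 CPM, and their part in the differences below was not tested. Genes of S phase (41 of 43 lower, median log2 fold change -0.81) and of G2/M phase (51 of 52 lower, median -0.87) fell with enzalutamide, and their part was not tested either. By the numbers in the labels, R1881 + DMSO libraries run from 51 to 55 and from 71 to 75, whereas those with enzalutamide run from 81 to 85, so that series and treatment cannot be told apart. In libraries 73, 74 and 83 (R1881 + DMSO replicates 6 and 5 and R1881 + enzalutamide replicate 2) genes rich in G and C stood above their group mean. Spearman's rho was 0.79, 0.65 and 0.80 across genes with a G and C value and a mean of at least 5 CPM. Results that rest on these libraries are given without them too. Libraries 51, 52 and 53 (R1881 + DMSO, rho of -0.66, -0.72 and -0.67) and 82 and 85 (R1881 + enzalutamide, -0.54 and -0.61) leaned the other way. They were not left out as a set.

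Of the 9 genes, 4 fell with enzalutamide (MDC1, PAXIP1, RIF1 and RNF168), 1 rose (RNF8) and 4 did not pass the test (RAD50, NBN, TP53BP1 and KAT5), by limma with Benjamini-Hochberg adjustment over 17046 genes and a threshold of 0.05. By the same test 62.5% of all genes were called, 32.7% as lower and 29.8% as higher, so a call by itself does not set these genes apart. The median log2 fold change of the 9 genes was -0.04, beside -0.01 over all genes tested. In bulk RNA, fewer cells that express a gene and less of its RNA per cell cannot be told apart.

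**Figure D1:**
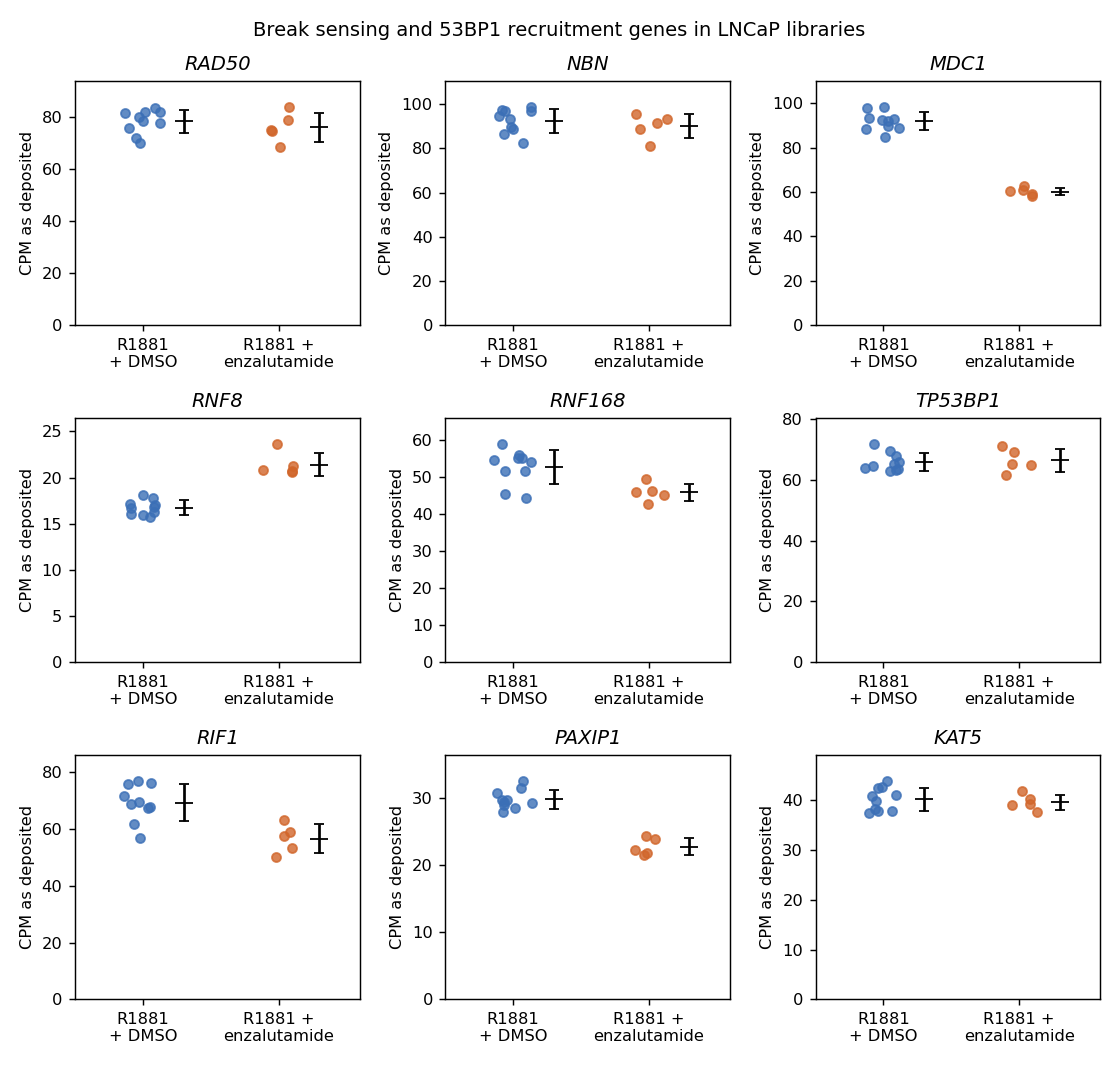
CPM of each gene in the 10 R1881 + DMSO libraries (blue) and the 5 R1881 + enzalutamide libraries (orange), with the mean and SD as black bars and a vertical axis from 0 in each panel. MDC1 and PAXIP1 lie lower with enzalutamide without overlap (58.3 to 62.7 against 84.9 to 98.3 CPM for MDC1) and RNF8 lies higher (20.6 to 23.6 against 15.7 to 18.1 CPM), while the points of the other 6 genes overlap.

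The sensors of the break did not differ between treatments by this test. RAD50 (chromosome 5, 132556019 to 132646349, plus strand of GRCh38) encodes the ATPase that bridges the broken ends. It was at 70.0 CPM in the lowest R1881 + DMSO library, 79.1 in the median and 83.2 in the highest, and at 78.5, 68.5, 74.4, 83.6 and 74.7 CPM in R1881 + enzalutamide replicates 1 to 5. The enzalutamide libraries spanned the whole range of the others, and the log2 fold change was -0.04 ± 0.048 (SE, 95% interval -0.14 to 0.06, limma adjusted p = 0.471). NBN (chromosome 8, 89924515 to 90003228, minus strand) encodes NBS1, which tethers ATM to the complex. Its R1881 + DMSO libraries were at 82.7 (lowest), 93.9 (median) and 98.7 CPM (highest), and replicates 1 to 5 with enzalutamide at 91.4, 81.3, 89.0, 95.5 and 93.4 CPM. The groups overlapped here too, with a log2 fold change of -0.04 ± 0.046 (SE, 95% interval -0.14 to 0.06, limma adjusted p = 0.472).

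The RAD50 and NBN subunits moved together from library to library. Their log2 ratio was -0.24 ± 0.045 (SD, n = 10) with R1881 + DMSO and -0.25 ± 0.048 (SD, n = 5) with R1881 + enzalutamide, and the difference of -0.0020 gave p = 0.94 in a two-sided exact permutation test over 3003 regroupings of the libraries. The shared low points were libraries 73 and 74 with R1881 + DMSO and library 83 with enzalutamide, the lowest of their groups for both genes. RNF168 and RIF1 had the same lowest libraries. With the GC trend removed, the log2 SD with R1881 + DMSO went from 0.0842 to 0.0378 for RAD50 and from 0.0849 to 0.0346 for NBN. Whether the 2 genes moved together beyond that trend was not tested. NBN and RAD50 transcripts hold 36.9% and 41.2% G and C, below the median gene at 47.9%.

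Of 6 partners in sensing and signalling 4 fell, 1 rose and 1 did not pass, with a median log2 fold change of -0.24, beside 62.5% of all genes called. Whether they differed from the sensors as a group was not tested. MRE11, the nuclease of the same complex, went from 42.4 ± 3.94 (SD, n = 10) to 38.3 ± 3.07 CPM (SD, n = 5) without passing the test (log2 fold change -0.14, limma adjusted p = 0.0624), and a pseudogene copy can share its reads. Without libraries 73, 74 and 83 MRE11 did pass (-0.15, limma adjusted p = 0.0117), as it did with the GC trend removed (-0.12, limma adjusted p = 0.0042), against libraries 51 to 55 alone (-0.22, limma adjusted p = 0.00459), and without R1881 + DMSO replicate 5 or 6 or R1881 + enzalutamide replicate 1 or 4 (limma adjusted p between 0.015 and 0.0434). ATM was at 46.9 ± 3.15 CPM (SD, n = 10) with R1881 + DMSO and at 65.2 ± 3.89 CPM (SD, n = 5) with R1881 + enzalutamide, a log2 fold change of 0.47 (limma adjusted p = 6.24e-08). H2AX, which encodes the histone that ATM marks and that MDC1 reads, fell from 34.8 ± 5.40 to 18.2 ± 3.01 CPM, by 0.92 on the log2 scale (limma adjusted p = 1.12e-07). The kinase ATM and its histone target therefore moved in opposite directions, each without overlap between the treatments. The competing end-binding complex for direct joining fell in all 3 subunits, with log2 fold changes of -0.57 for XRCC5 (Ku80), -0.29 for XRCC6 (Ku70) and -0.18 for PRKDC (the kinase DNA-PKcs), all past the limma threshold (adjusted p between 7.14e-10 and 0.00153). With each library total set to 1000000 PRKDC no longer passed (-0.09, limma adjusted p = 0.0745).

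MDC1, the scaffold between marked H2AX and RNF8, had the largest difference of the 9 genes. The gene lies on chromosome 6 (30699807 to 30717447, minus strand). The R1881 + DMSO libraries were at 84.9 (lowest), 92.3 (median) and 98.3 CPM (highest), and R1881 + enzalutamide replicates 1 to 5 were at 62.7, 59.1, 60.8, 60.4 and 58.3 CPM. Every library with enzalutamide was below every library without it, and the spread within that group was 1.69 CPM (SD, n = 5). The mean fell by 34.5%, with a log2 fold change of -0.60 ± 0.037 (SE, 95% interval -0.68 to -0.53, limma adjusted p = 7.51e-12). MDC1 and PAXIP1 were the 2 genes of the 9 that were lower without overlap and RNF8 the 1 that was higher, beside 20.1% and 17.1% of all genes. The change of MDC1 stayed between -0.62 and -0.59 when each library was left out in turn.

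The ligases that act in sequence went in opposite directions. RNF8 (chromosome 6, 37353979 to 37394734, plus strand) was at 15.7 CPM in the lowest R1881 + DMSO library, 16.7 in the median and 18.1 in the highest. With enzalutamide, replicates 1 to 5 were at 20.8, 20.6, 20.7, 21.3 and 23.6 CPM. All 5 lay above all 10, with the last standing apart from the other 4, and the log2 fold change was 0.35 ± 0.049 (SE, 95% interval 0.24 to 0.45, limma adjusted p = 3.44e-06). This corresponded to 1.27 times the level without enzalutamide (95% interval 1.18 to 1.36).

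RNF168 (chromosome 3, 196468783 to 196503768, minus strand) was at 44.3 (lowest), 54.4 (median) and 58.9 CPM (highest) with R1881 + DMSO, and at 45.9, 42.8, 45.3, 49.4 and 46.2 CPM in replicates 1 to 5 with enzalutamide. Libraries 73 and 74, at 45.5 and 44.3 CPM, were the only R1881 + DMSO libraries inside the range of the others. The log2 fold change was -0.19 ± 0.059 (SE, 95% interval -0.32 to -0.07, limma adjusted p = 0.00719). Without libraries 73, 74 and 83 it was -0.23 (limma adjusted p = 3.42e-05). Against libraries 51 to 55 alone it was -0.24 (limma adjusted p = 0.000352) and against 71 to 75 alone -0.15 (limma adjusted p = 0.0858), so the call was lost against the series that holds 73 and 74, where 58.9% of all genes were called, against 61.6% with 51 to 55. It was also lost with each library total set to 1000000, where the log2 fold change was -0.10 (limma adjusted p = 0.123).

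The ratio of RNF168 to RNF8 within a library does not depend on the scaling of that library, apart from the 0.5 CPM added to each gene. It fell from a mean log2 ratio of 1.62 ± 0.121 (SD, n = 10) to 1.08 ± 0.091 (SD, n = 5). These means correspond to ratios of 3.08 and 2.12 for CPM + 0.5. The highest enzalutamide library, at 1.19, was below the lowest R1881 + DMSO library, at 1.36. The difference was -0.54. Both ligase genes were chosen with earlier results of these data known, so the ratio is a description and its p is not given.

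The sequences just upstream of both ligase genes and of RIF1 are shown because these 3 genes differed between treatments and RNF8 did so in the other direction. They are from RefSeq on GRCh38.p14, run 5′ to 3′ on the strand of the gene and leave out bases that lie in an exon. Capitals mark the letters of a CHR, the cell cycle homology region (TTTGAA), of the motif of ETS factors (CCGGAAG) or of the CCAAT box, whose letters on the strand shown are ATTGG.
RNF8, chr6:37353733-37353978, plus strand: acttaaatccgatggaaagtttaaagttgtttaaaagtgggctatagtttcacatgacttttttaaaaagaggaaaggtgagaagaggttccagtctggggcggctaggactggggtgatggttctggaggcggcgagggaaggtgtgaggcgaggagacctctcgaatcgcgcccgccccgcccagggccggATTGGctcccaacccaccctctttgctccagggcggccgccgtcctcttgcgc
RNF168, chr3:196503769-196504018, minus strand: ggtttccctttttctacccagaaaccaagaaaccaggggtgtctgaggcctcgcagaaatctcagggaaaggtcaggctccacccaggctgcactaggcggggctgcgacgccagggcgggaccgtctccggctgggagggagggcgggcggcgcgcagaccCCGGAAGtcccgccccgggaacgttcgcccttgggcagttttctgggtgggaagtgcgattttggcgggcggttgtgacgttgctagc
RIF1, chr2:151409652-151409882, plus strand: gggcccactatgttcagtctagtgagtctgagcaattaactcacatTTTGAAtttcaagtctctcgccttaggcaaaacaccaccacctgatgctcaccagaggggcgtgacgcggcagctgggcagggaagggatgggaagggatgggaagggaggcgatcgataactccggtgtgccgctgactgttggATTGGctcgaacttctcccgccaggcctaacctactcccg
Counted from the RefSeq start, RNF8 held a CCAAT box at -57, RNF168 an ETS motif at -88, and RIF1 both a CCAAT box at -59 and a CHR at -204.

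RefSeq promoters of 250 bases before the start were at hand for 7 of the 9 genes, all but NBN and PAXIP1, and were searched on both strands. Bases in an annotated exon were included in this search. They fill the whole window of MDC1 and KAT5. For TP53BP1 only -250 to -89 lay outside exons, and for RAD50 only -138 to -48. The ETS motif was in 4 of 7 (RAD50, RNF168, TP53BP1 and KAT5), beside 8.52% of 35116 promoters. The CCAAT box was in 4 of 7 (MDC1, RNF8, TP53BP1 and RIF1), beside 32% of promoters, and the CHR in MDC1 and RIF1, beside 13.3%. None of the 7 held the letters of an androgen response half-site (AGAACA, 12.4% of promoters), of E2F (TTTCCCGC or TTTGGCGC, 1.93%) or of NRF1 (GCGCATGC, 2.63%). The CCAAT box was in genes of each direction, in MDC1 and RIF1 (lower), RNF8 (higher) and TP53BP1 (not called). The CHR was in genes that fell, and the ETS motif in RNF168 (lower) and in 3 genes that were not called. A match of letters is a description of the window and not a binding site.

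Around these ligases, 10 of 19 ubiquitin and SUMO genes fell, 3 rose and 6 did not pass, beside 62.5% of all genes called. Their median log2 fold change was -0.14. The lowest was PIAS1, a SUMO ligase that acts at breaks, from 105 ± 7.36 (SD, n = 10) to 56.8 ± 4.02 CPM (SD, n = 5), with a log2 fold change of -0.89 (limma adjusted p = 3.96e-12). The highest was the deubiquitinase OTUB2, from 6.62 ± 0.934 to 10.7 ± 0.537 CPM, with a log2 fold change of 0.66 (limma adjusted p = 8.75e-07). UBE2N, the ubiquitin-conjugating enzyme that works with RNF8 and RNF168 and was named after its values were seen, went from 187 ± 9.23 to 127 ± 4.63 CPM and fell by 0.56 on the log2 scale (limma adjusted p = 4.1e-11). RNF8 therefore rose while the enzyme that supplies it with ubiquitin fell.

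TP53BP1 itself did not differ between the treatments by this test. The gene lies on chromosome 15 (43403061 to 43510728, minus strand). It was at 62.9 CPM in the lowest R1881 + DMSO library, 65.0 in the median and 71.7 in the highest. With enzalutamide, replicates 1 to 5 were at 71.3, 64.9, 61.7, 69.3 and 65.2 CPM, spread over the same range. The log2 fold change was 0.01 ± 0.041 (SE, 95% interval -0.07 to 0.10, limma adjusted p = 0.805). For the scaling as deposited, this interval leaves out changes beyond 0.951 or 1.07 times. With each library total set to 1000000 the log2 fold change was 0.11 (limma adjusted p = 0.0226), where the median of all genes also moved up by 0.085.

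53BP1 and BRCA1 act against each other in the choice between joining and resecting a break, and the ratio of their mRNA differed between the treatments. The log2 ratio of TP53BP1 to BRCA1 was 0.83 ± 0.118 (SD, n = 10) with R1881 + DMSO, between 0.694 and 1.07, and 1.81 ± 0.15 (SD, n = 5) with R1881 + enzalutamide, between 1.70 and 2.08. The groups did not overlap, and there were 1.77 TP53BP1 reads for each BRCA1 read in the former and 3.52 in the latter. BRCA1 was at 37.1 ± 3.57 CPM (SD, n = 10) and at 18.6 ± 2.15 CPM (SD, n = 5), a log2 fold change of -0.98, and this carries the difference of the log2 ratio of 0.99, as TP53BP1 moved by 0.01. The pair was chosen with the fall of BRCA1 known, so the ratio is a description and its p is not given.

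**Figure D2:**
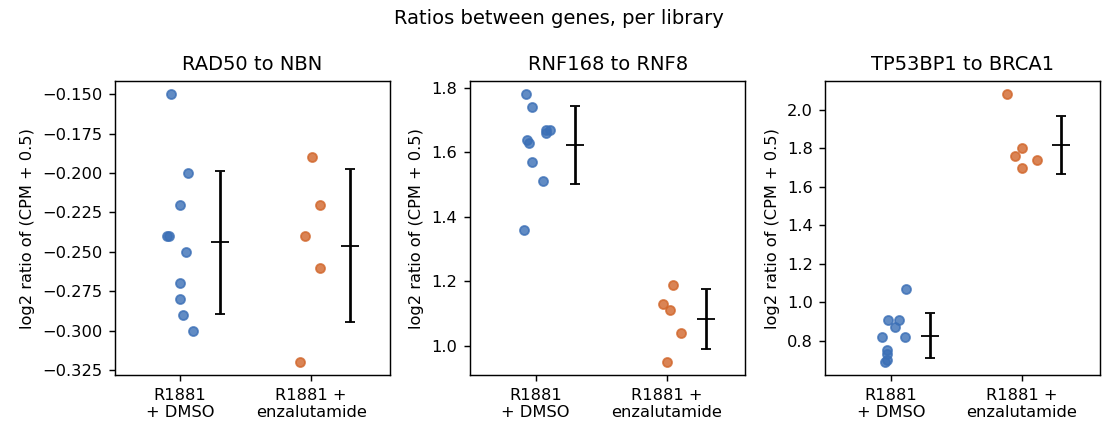
Log2 ratio of CPM + 0.5 between 2 genes in each library, with R1881 + DMSO in blue (n = 10), R1881 + enzalutamide in orange (n = 5) and the mean and SD in black, each panel with its own axis. RAD50 to NBN overlaps (-0.24 against -0.25), RNF168 to RNF8 falls from 1.62 to 1.08 and TP53BP1 to BRCA1 rises from 0.83 to 1.81, both without overlap.

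The pattern of TP53BP1 over the 15 libraries was set beside that of 12163 other genes with a mean of at least 5 CPM, as the root mean square difference of log2(CPM + 0.5) after centring each gene on its own mean. The nearest were GPATCH8 (0.0405), DAP3 (0.0417) and KARS (0.0441). Their log2 fold changes of -0.0033, 0.0031 and 0.02 follow from the choice, which used the same libraries. Among the other 8 genes, RAD50 (0.0778) and NBN (0.0797) were nearest to TP53BP1 and MDC1 (0.304) was farthest.

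The mRNAs of enzymes for the histone marks that 53BP1 reads, and of proteins that mask them or hold 53BP1 back, moved both ways. The marks themselves were not measured. Of 10 such genes 4 fell, 4 rose and 2 did not pass, beside 62.5% of all genes called. Their median log2 fold change was -0.01. KMT5A, the methyltransferase that starts the H4 lysine mark, went from 119.8 ± 2.93 (SD, n = 10) to 66.5 ± 2.27 CPM (SD, n = 5), a log2 fold change of -0.84 (limma adjusted p = 1.17e-15). L3MBTL1, which binds the same mark, went from 3.14 ± 0.749 to 4.804 ± 0.320 CPM, a log2 fold change of 0.57 (limma adjusted p = 0.000609). NSD2, another methyltransferase of this list, went from 125.0 ± 2.36 to 101.5 ± 4.15 CPM, a log2 fold change of -0.30 (limma adjusted p = 2.62e-08). Of the writers that share the H4 mark with KMT5A, KMT5B and KMT5C were not called lower. These 3 genes were named after their values were seen. KMT5C rose from 4.57 ± 1.09 to 6.35 ± 1.02 CPM (log2 fold change 0.45, limma adjusted p = 0.00474), a call that was lost against libraries 71 to 75 alone (0.28, limma adjusted p = 0.104), and KMT5B did not pass (-0.06, limma adjusted p = 0.267).

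Both effectors that bind 53BP1 fell. RIF1 (chromosome 2, 151409883 to 151508013, plus strand), which links 53BP1 to end protection, was at 56.9 (lowest), 69.2 (median) and 76.7 CPM (highest) with R1881 + DMSO. Replicates 1 to 5 with enzalutamide were at 57.6, 50.0, 53.4, 63.1 and 58.8 CPM. Only libraries 73 and 74, at 56.9 and 61.8 CPM, reached down into the enzalutamide range. The log2 fold change was -0.29 ± 0.065 (SE, 95% interval -0.43 to -0.15, limma adjusted p = 0.000663), and without libraries 73, 74 and 83 it was -0.30 (limma adjusted p = 2.98e-06). It was -0.38 against libraries 51 to 55 alone (limma adjusted p = 1.12e-05) and -0.20 against 71 to 75 alone (limma adjusted p = 0.0231), so the size but not the call moved with the series.

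PAXIP1 (chromosome 7, 154943687 to 155003124, minus strand) was at 27.8 (lowest), 29.5 (median) and 32.4 CPM (highest) with R1881 + DMSO, and at 22.2, 21.5, 24.3, 23.8 and 21.8 CPM in replicates 1 to 5 with enzalutamide. All libraries with enzalutamide lay below all without it. The mean fell by 23.6%, with a log2 fold change of -0.38 ± 0.046 (SE, 95% interval -0.48 to -0.29, limma adjusted p = 3.37e-07).

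**Figure D3:**
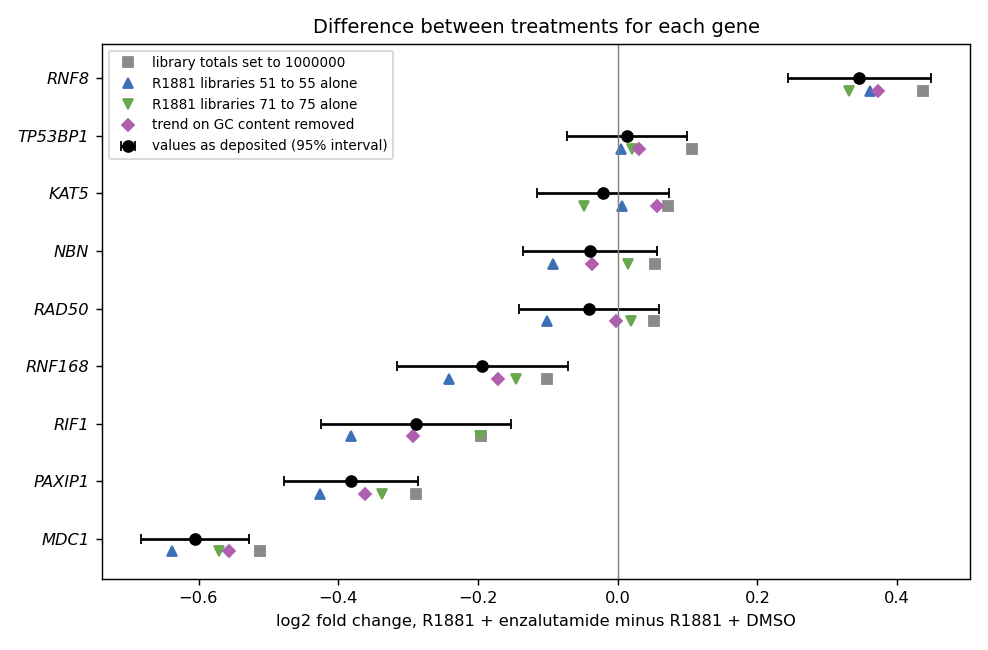
Log2 fold change of each gene, R1881 + enzalutamide minus R1881 + DMSO, on log2(CPM + 0.5), with the 95% interval for the values as deposited (black) and the value under 4 other settings (coloured marks). MDC1 (-0.60), PAXIP1 (-0.38), RIF1 (-0.29) and RNF168 (-0.19) lie left of 0 and RNF8 (0.35) right of 0 under each setting drawn, while RAD50, NBN and KAT5 change side.

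Further downstream, 7 of 13 effector genes tested fell, 1 rose and 5 did not pass, beside 62.5% of all genes called. The median log2 fold change was -0.19. The number higher was 2 or 3 under other settings, through DCLRE1C and STN1. DCLRE1C, the nuclease Artemis, passed without R1881 + DMSO replicate 4 or 7 or R1881 + enzalutamide replicate 2 (limma adjusted p between 0.0402 and 0.0428), and STN1 without libraries 73, 74 and 83 (0.18, limma adjusted p = 0.0201), and both passed by edgeR (adjusted p = 0.0213 and 0.0355), with library totals set to 1000000 and with the GC trend removed. PPP1CB, a phosphatase subunit of the family that RIF1 binds, went from 522 ± 30.1 (SD, n = 10) to 262.6 ± 12.1 CPM (SD, n = 5), with a log2 fold change of -0.99 (limma adjusted p = 1.63e-14). CTC1, of the complex that refills resected ends, went from 26.2 ± 2.19 to 34.5 ± 1.51 CPM, with a log2 fold change of 0.39 (limma adjusted p = 5.35e-06). Of the shieldin genes, named after their values were seen, SHLD2 (-0.67), SHLD3 (-0.27) and MAD2L2 (-0.33) fell on the log2 scale, while SHLD1, at 3.55 ± 0.443 and 3.85 ± 0.447 CPM, did not pass (limma adjusted p = 0.339). The call of SHLD3 was lost with library totals set to 1000000 (-0.18, limma adjusted p = 0.112), against libraries 51 to 55 alone (-0.21, limma adjusted p = 0.0541), and without R1881 + enzalutamide replicate 3 (-0.23, limma adjusted p = 0.0688) or 5 (-0.25, limma adjusted p = 0.0518). SHLD2, SHLD3 and MAD2L2 thus moved in the direction of RIF1.

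The chromatin complex that holds PTIP did not move as a unit with PAXIP1. Of 9 of its genes 3 fell, 2 rose and 4 did not pass, beside 62.5% of all genes called. Their median log2 fold change was -0.02. PAGR1, the small protein that pairs with PTIP, was lowest at -0.69 (2.08 ± 0.790 against 1.08 ± 0.426 CPM, limma adjusted p = 0.00272). The demethylase gene KDM6A was highest at 0.84 (273.8 ± 11.6 against 489 ± 17.3 CPM, limma adjusted p = 7.84e-15). The groups of PAGR1 overlapped, and its reads were few. Their median was 40 with R1881 + DMSO and 20 with R1881 + enzalutamide, with 16 in the lowest library. PAXIP1 and PAGR1 therefore fell while an enzyme of the same complex rose.

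KAT5 (chromosome 11, 65711996 to 65719604, plus strand) did not differ between the treatments by this test. It was at 37.4 (lowest), 40.2 (median) and 43.7 CPM (highest) with R1881 + DMSO and at 39, 41.8, 37.6, 39.1 and 40.1 CPM in replicates 1 to 5 with enzalutamide. The enzalutamide libraries all fell inside the range of the others, with a log2 fold change of -0.02 ± 0.045 (SE, 95% interval -0.12 to 0.07, limma adjusted p = 0.700). Of 17 partners of TIP60 in its complex, 8 fell, 5 rose and 4 did not pass, beside 62.5% of all genes called. The median log2 fold change was -0.13. The lowest was MEAF6 (-0.42, from 175.6 ± 4.29 to 130.9 ± 2.96 CPM, limma adjusted p = 3.27e-11). The highest was MBTD1 (0.45, from 29.4 ± 2.30 to 40.2 ± 2.30 CPM, limma adjusted p = 5.04e-07), a reader of the same H4 mark as 53BP1 and also among the regulators above. The catalytic subunit thus did not pass the test while subunits around it moved to either side.

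The list of end resection factors and of the BRCA1-A complex, which RNF8 and RNF168 ubiquitin recruits, held the widest spread. Of its 11 genes 5 fell, 2 rose and 4 did not pass, beside 62.5% of all genes called. The median log2 fold change was -0.08. The nuclease gene EXO1 was lowest, from 17.1 ± 2.35 (SD, n = 10) to 7.06 ± 0.380 CPM (SD, n = 5), a log2 fold change of -1.21 (limma adjusted p = 1.14e-10). BARD1, the partner of BRCA1, was highest, from 98.2 ± 5.98 to 321.6 ± 19.0 CPM, a log2 fold change of 1.71 (limma adjusted p = 5.85e-18). Over the 84 partner genes tested, 41 fell, 17 rose and 26 did not pass, beside 62.5% of all genes called. Their median was -0.13. With each library total set to 1000000 the split was 29 lower and 28 higher for the partners, 3 lower and 2 higher for the 9 genes (64.1% of all genes called), and 4288 lower and 6629 higher for all genes, against 5577 and 5083 with the values as deposited.

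**Figure D4:**
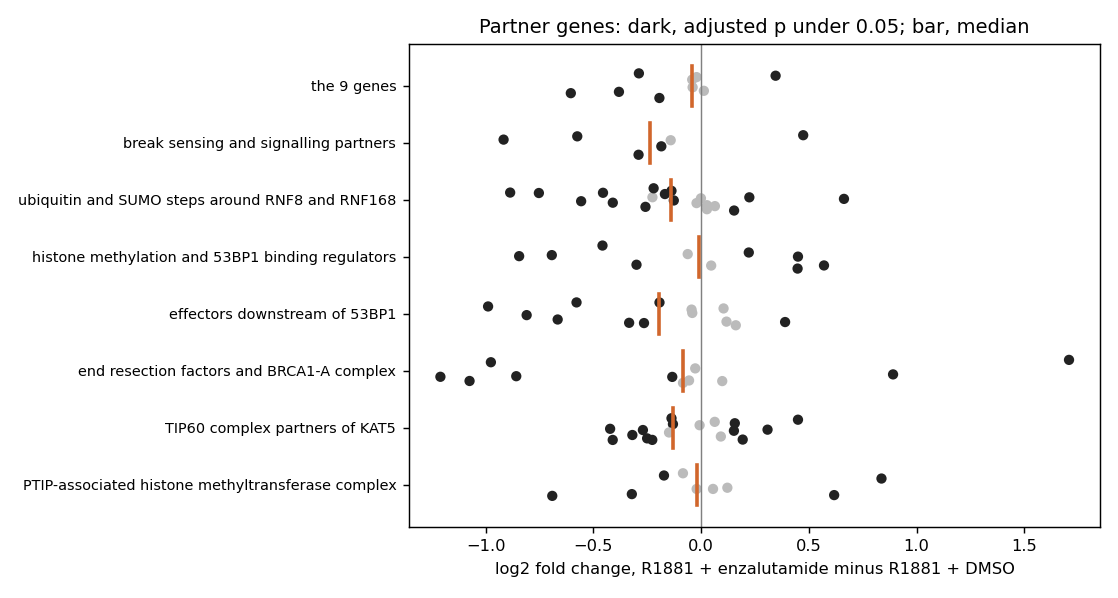
Log2 fold change, R1881 + enzalutamide minus R1881 + DMSO, of the 9 genes and of the partner genes in 7 lists, 1 point a gene, dark where the limma adjusted p was under 0.05, with the list median as an orange bar. Medians run from -0.24 (break sensing partners) to -0.01 (histone methylation), and BARD1 at 1.71 and EXO1 at -1.21 are the outermost points.

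Libraries of the same treatment did not scatter independently from gene to gene. Libraries 73 and 74 were the 2 lowest R1881 + DMSO libraries for 4 genes (RAD50, NBN, RNF168 and RIF1), and library 83 was the lowest enzalutamide library for 6 (RAD50, NBN, RNF8, RNF168, RIF1 and PAXIP1). RIF1 and NBN are among the genes poorest in G and C (36.6% and 36.9%), whereas KAT5, at 57.8%, was above its group mean in libraries 73, 74 and 83. After the trend on G and C content was removed in each library, the SD of RIF1 on the log2 scale went from 0.137 to 0.058 with R1881 + DMSO and from 0.128 to 0.0699 with enzalutamide. Its groups then no longer overlapped, and its log2 fold change was -0.29 (limma adjusted p = 1.58e-08, beside 73% of all genes called). The SD of NBN with R1881 + DMSO went from 0.0849 to 0.0346, and its difference of -0.04 still did not pass (limma adjusted p = 0.161).

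**Figure D5:**
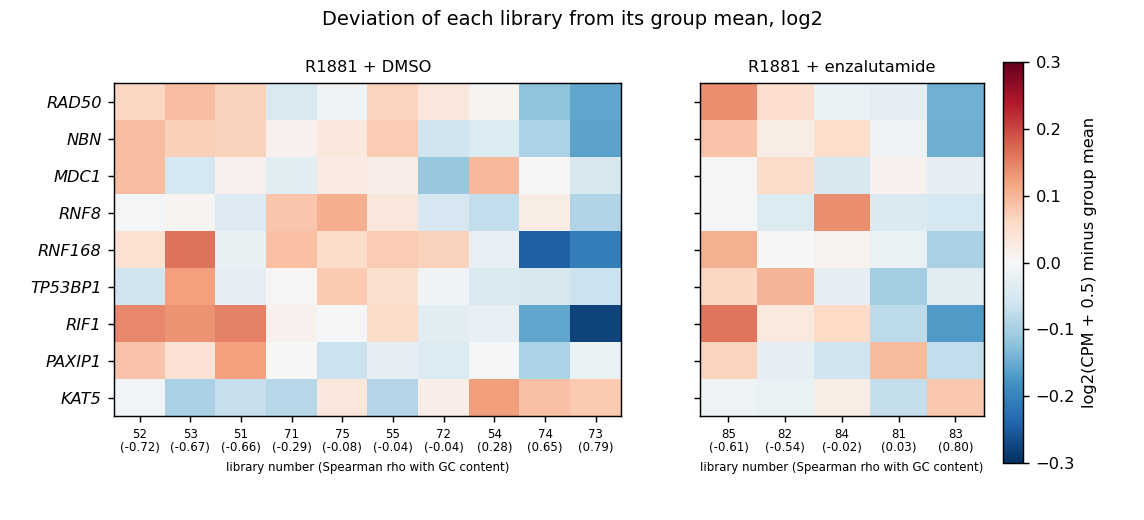
Deviation of each gene from its group mean, log2(CPM + 0.5), in the R1881 + DMSO (left) and R1881 + enzalutamide libraries (right), with columns ordered by the Spearman's rho with G and C content printed under each library number. RAD50, NBN, RNF168 and RIF1 go from above the mean (red) at rho = -0.72 to below it (blue) at rho = 0.79, and KAT5 runs the other way.

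Between the R1881 series, with no difference in treatment, 0 of the 9 genes passed the limma test when libraries 71 to 75 were compared with 51 to 55 (n = 5 each), beside 3.29% of 16810 genes. At an unadjusted p under 0.05 there were 3, all lower in 71 to 75, with log2 differences of -0.12 for RAD50, -0.11 for NBN and -0.18 for RIF1 (limma adjusted p between 0.0820 and 0.158). In the values as deposited, RAD50 and NBN thus differed more between these series than between the treatments (-0.04 each). RIF1 differed by -0.29 between the treatments. With the GC trend removed, the series differences were -0.036 for RAD50, -0.0024 for NBN and -0.078 for RIF1 (limma adjusted p between 0.143 and 0.976). Those between the treatments were then -0.0023, -0.037 and -0.29, so for NBN the order was reversed.

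Levels can be compared between genes only per length, here as CPM per kb of merged exons with R1881 + DMSO. The order was MDC1 (12.1 ± 0.548, SD, n = 10), KAT5 (10.8 ± 0.619), RNF168 (9.86 ± 0.867), RAD50 (7.40 ± 0.425), TP53BP1 (5.08 ± 0.229), NBN (4.77 ± 0.277), RIF1 (3.81 ± 0.353), PAXIP1 (3.07 ± 0.147) and RNF8 (2.55 ± 0.119). Of neighbours in this order, MDC1 and KAT5, KAT5 and RNF168, TP53BP1 and NBN, and RIF1 and PAXIP1 overlapped in their libraries. With enzalutamide MDC1 was at 7.91 ± 0.222 CPM per kb (SD, n = 5), inside the range of RAD50 (6.49 to 7.91). The order depends on the length used: per kb of the canonical transcript NBN came first (20.04 ± 1.17) and PAXIP1 rose to 7.70 ± 0.367, while RNF8 stayed last (2.98 ± 0.139). With enzalutamide RNF8 was at 3.26 ± 0.192 CPM per kb of merged exons (SD, n = 5), above the means of RIF1 (3.11 ± 0.277) and PAXIP1 (2.35 ± 0.128).

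Some of these genes share exon bases with a neighbour in GENCODE v44, and whether counting used the strand is not stated in the sources used here. RAD50 shares 76.9% of its exon bases with a readthrough gene on the same strand that has no symbol there. KAT5 shares 38.6% with RNASEH2C and TP53BP1 28.8% with TUBGCP4, both on the opposite strand. RNASEH2C was at 23.3 ± 2.20 CPM (SD, n = 10) and 25.2 ± 0.976 CPM (SD, n = 5), and TUBGCP4 at 30.9 ± 1.71 and 29.7 ± 1.26 CPM, and neither passed the limma test (adjusted p = 0.110 and 0.302).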

How the data were processed

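Polyadenylated RNA of LNCaP cells was sequenced in 15 libraries (TruSeq Stranded, single-end reads), described in the methods as biological replicates. The authors aligned reads to GRCh38 with STAR and used featureCounts to count them. The values they deposited are a normalized signal that the methods call CPM. The columns summed to 985580 to 1078567, and neither the scaling nor the tool versions were stated in the sources used here. All values (100%) were whole multiples of 1 read within 0.01 reads, which gave back the read counts. The columns of the table all matched a sample.

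Differences were tested with limma 3.58.1 in R 4.3.3 on log2(CPM + 0.5), with a mean-variance trend, for genes with a mean of at least 0.5 CPM, treatment as the only term and Benjamini-Hochberg adjustment over all genes tested. Fold changes are therefore on the log2(CPM + 0.5) scale. Alternatives were edgeR 4.0.16 and DESeq2 1.42.0 on the recovered reads, other pseudocounts, filters and scalings, the replicate number as a block, either R1881 series by itself and each library left out. Removal of the trend on GC content (spline, 5 degrees of freedom, 85.0% of genes with a value) and leaving out libraries 73, 74 and 83 were added after the data were seen. The design had assumed CPM, and this test was kept for the deposited signal. Ratios were compared by exact permutation, with p given only for RAD50 to NBN. The 9 genes and all lists were chosen with earlier results of these data known. Named were the 9 genes, all break sensing partners, the highest and lowest gene of each other list and the 3 genes nearest to TP53BP1. Lists of S phase and G2/M phase genes came with Seurat 5.3.0. TEN1 was not analysed here. A check gene is not reported here. All 55 pairs of same-treatment libraries differed beyond sampling noise (lowest chi-square per degree of freedom 1.62), and each library was counted once. Precision is set by the number of libraries and by counting error, with the 9 genes at 267 reads or more in every library. The limma script was tested on simulated data.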

Additional observations from a re-analysis of the deposited data

Results flagged for a closer look

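RNF8 in R1881 + enzalutamide replicate 5 was at 4.59 on the log2(CPM + 0.5) scale, far from the other 4 libraries of its group (gap over range of 0.745, beside a critical value of 0.71 for 5 samples). Without this library the log2 fold change of RNF8 was 0.31, and the call was kept in each of the 15 fits that left out 1 library (limma adjusted p at most 3.01e-05). The log2 ratio of TP53BP1 to BRCA1 in R1881 + enzalutamide replicate 2, which is library 83, was 2.08 and stood apart in the same way (gap over range of 0.738). Over the 15 fits that left out 1 library the difference of this ratio ran from 0.923 to 1.02. These are 2 flags in 24 groups examined, where chance gives about 1.2.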

How the results depend on the processing

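MDC1, RNF8, RIF1 and PAXIP1 kept their direction and their call under every alternative run. RNF168 lost its call with library totals set to 1000000 (log2 fold change -0.101, limma adjusted p = 0.123) and against libraries 71 to 75 alone (-0.146, adjusted p = 0.0858), and was between -0.221 and -0.169 with each library left out. TP53BP1 passed with library totals set to 1000000 (0.106, adjusted p = 0.0226), and was between -0.0128 and 0.0389 with each library left out, negative without R1881 + enzalutamide replicate 1 or 4. Genes near 0 changed sign without passing. With library totals set to 1000000, RAD50 was at 0.0515, NBN at 0.0536 and KAT5 at 0.0713. By edgeR on the reads they were at 0.0026, 0.0043 and 0.0211. Against libraries 71 to 75 alone RAD50 was at 0.0183 and NBN at 0.0143, and KAT5 was at 0.0060 against 51 to 55 alone and at 0.0559 with the GC trend removed. The difference of the RAD50 to NBN log2 ratio was 0.0040 against libraries 71 to 75 alone and between -0.0155 and 0.0163 with each library left out. The cause of these changes was not tested. Library totals set to 1000000 moved the median of all genes by 0.085, made 2 of the 9 genes higher and 28 partner genes higher, and with the GC trend removed 26 partner genes were higher.

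Between the R1881 series, 900 genes passed with the GC trend removed and between 56 and 969 with each library left out, against 553. The fewest were without R1881 + DMSO replicate 9, and the most, with 1 of the 9 genes called, were without replicate 3. Of the 9 genes between 0 and 1 passed.

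With the replicate number as a block, 10043 genes passed, and the log2 fold changes were -0.63 for MDC1, 0.31 for RNF8, -0.18 for RNF168, -0.26 for RIF1 and -0.34 for PAXIP1, so that all 5 calls were kept. The replicate numbers did not pair the libraries, since the correlation of same-numbered deviations was -0.08, -0.11, -0.11, 0.13 and 0.04 for replicates 1 to 5 and none correlated best with its own number. Series and treatment cannot be told apart, mRNA was measured at a single time and dose, and no protein or break was measured.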

Other observations

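MDC1 and TUBB, a beta-tubulin gene, start 12 bases apart on opposite strands of chromosome 6 (30699807 to 30717447 and 30717435 to 30725538, GRCh38) and share 13 exon bases. This pair was singled out after its values were seen. TUBB was at 1749 ± 77.9 CPM (SD, n = 10) with R1881 + DMSO and at 1137 ± 34.1 CPM (SD, n = 5) with R1881 + enzalutamide, without overlap, a log2 fold change of -0.62 ± 0.034 (SE, limma adjusted p = 1.11e-12) beside -0.60 ± 0.037 for MDC1. The log2 ratio of MDC1 to TUBB was between -4.33 and -4.18 with R1881 + DMSO and between -4.32 and -4.13 with enzalutamide, with means of -4.24 ± 0.051 (SD, n = 10) and -4.23 ± 0.069 (SD, n = 5). These levels differ widely, and the ratio between them moved by 0.016 on the log2 scale.

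NEB and PAXIP1-AS2, which overlap the 3′ parts of RIF1 and PAXIP1 on the opposite strand and were also singled out after their values were seen, rose. NEB, which shares 1.75% of the exon bases of RIF1, went from 3.65 ± 0.558 (SD, n = 10) to 13.2 ± 1.54 CPM (SD, n = 5), a log2 fold change of 1.72 (limma adjusted p = 2.47e-12), while RIF1 fell. PAXIP1-AS2, which shares 6.01% of those of PAXIP1, went from 6.16 ± 0.779 to 7.52 ± 0.699 CPM, a log2 fold change of 0.27 (limma adjusted p = 0.0106), while PAXIP1 fell. OSGIN2, which overlaps NBN on the opposite strand, rose from 29.0 ± 2.19 to 34.9 ± 2.54 CPM (limma adjusted p = 0.000409), while NBN did not pass the test. Reads of the shared bases cannot be told apart without strand.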
